A study of Mus musculus with 8 samples.

Results

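The Ifi200 family, also called the HIN-200 or PYHIN family, is a cluster of interferon-inducible genes on mouse chromosome 1, and 10 of its genes are described here: Aim2, Ifi203, Ifi204, Ifi206, Ifi207, Ifi208, Ifi209, Ifi213, Ifi214 and Mndal. They were picked by symbol from the 16308 genes of a count table of naive and Th17 cells, and they had been proposed with their levels in that comparison known. The values that led to the choice are therefore given as a description, with no test. Across the cluster, 7 of the 10 genes had far less RNA in Th17 than in naive cells, in both libraries of each kind, whereas Aim2 and Ifi204 were higher in both Th17 libraries and Ifi207 was close to the limit of detection throughout.

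PYHIN proteins carry a HIN domain that binds DNA, in most members together with a pyrin domain that joins proteins to each other. AIM2 senses double-stranded DNA in the cytosol and assembles an inflammasome with the adaptor ASC (encoded by Pycard) and caspase-1, while several p200 proteins, named for the mouse genes Ifi202 to Ifi214, act in the nucleus on transcription, growth and differentiation. Their genes are textbook targets of type I interferon, whose receptor signals through the kinases JAK1 and TYK2 to a complex holding STAT2 and IRF9 that binds interferon-stimulated response elements.

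The study set mouse naive CD4 T cells beside Th17 cells, the helper cells that make interleukin-17, and set wild-type beside DDX5-deficient Th17 cells, DDX5 being an RNA helicase. All mice were of the C57BL/6 strain, and total RNA was depleted of ribosomal RNA. Naive CD4+ cells were untreated, and the labels give no genotype for them or for the Th17 cells compared with them, which the series design calls wild type. The headers of the count columns of both groups carry WT and the prefix Malat1, which the labels do not explain. Th17 cells were grown for 72 h on antibodies to CD3ε (0.25 µg/mL) and CD28 (1 µg/mL) with the cytokines TGF-β (0.1 ng/mL) and IL-6 (20 ng/mL), per the sample fields, and the wild-type and DDX5-deficient Th17 cells had the same. The protocols of the same record differ from these fields, with TGF-β at up to 5.0 ng/mL and with 48 h beside 72 h. Each of the 4 groups had 2 libraries, described as independent biological replicates. How the DDX5-deficient line, labelled DDX5∆T, was made is not stated in the labels. Gene counts used here cover the naive and Th17 groups, while the wild-type and DDX5-deficient groups have tables of RNA editing only, so that member levels in DDX5-deficient cells were not analysed here.

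Libraries held 11768994 to 26624436 reads on genes. Of the defining genes of the labelled cells, 9 of 9 Th17 markers were higher and 7 of 7 naive T cell markers were lower in Th17 cells. The 8 CD4 T cell markers were present in every library and summed to 5821 and 6599 CPM in the naive and to 3072 and 2661 CPM in the Th17 libraries, with 6 of the 8 called lower and 0 higher. CPM are reads scaled to a common library size, here after TMM normalization. Other cell types left small traces. The 12 myeloid markers in the table summed to 12.6 and 18.7 CPM in the naive and 8.57 and 10.4 CPM in the Th17 libraries, with Csf3r at 0 reads in both Th17 libraries, and 4 of the 8 tested were lower and 1, Cd14, was higher. The 4 lower were 0 without naive library 1 or naive library 2, and 7 without Th17 library 2. The 9 dendritic cell markers summed to 78.0 and 87.2 CPM in naive and to 197 and 222 CPM in Th17 libraries, where 3 rose (H2-Ab1, Zbtb46 and Bst2), Itgax fell, and Clec9a and Siglech were at 0 reads, as Xcr1 was in the naive libraries. Without naive library 1 or naive library 2, 1 dendritic cell marker was called higher and 0 lower, and without Th17 library 2, 2 were called lower. For the 8 B cell markers the sums were 2.49 and 3.31 CPM in naive and 45.9 and 52.6 CPM in Th17 libraries, nearly all of the latter from Ebf1, while Ms4a1 was at 0 reads in the naive and Blk at 0 reads in the Th17 libraries. The 9 markers of CD8 T and NK cells went from 101 and 115 CPM to 55.0 and 53.3 CPM. Of these, Prf1, Eomes, Klrd1 and Cd8b1 were called lower and Nkg7 higher. The 8 erythroid and platelet markers lay between 5.13 and 12.2 CPM in all 4 libraries, with Epor called higher and Pf4 at 0 reads in the naive libraries. The part of these cells in the results below was not tested. In bulk RNA, fewer cells of a type and less RNA per cell cannot be told apart.

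Together the 10 members summed to 1578 and 1518 CPM in the naive libraries and to 92.9 and 79.9 CPM in the Th17 libraries, a 17.9-fold difference of the means. The 7 members that were lower in Th17 cells (Ifi203, Ifi206, Ifi208, Ifi209, Ifi213, Ifi214 and Mndal) summed to 1559 and 1499 CPM and to 48.2 and 44.5 CPM, a 33.0-fold difference. In the fit across all genes, 9 of the 10 members passed the filter on low counts, of which 7 were called lower and 2 higher in Th17 cells (adjusted p below 0.05). Without naive library 1 or naive library 2, 0 instead of 2 were called higher. Ifi204 passed that filter only through its Th17 libraries, where it is high. Among all 11989 genes tested, 30.7% were called lower, 34.3% higher and 65.1% either way. The members' calls describe the contrast on which they were chosen, so they are no test of it. Their median log2 difference, Th17 minus naive, was -5.09, against 0.06 over all tested genes.

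**Figure D1:**
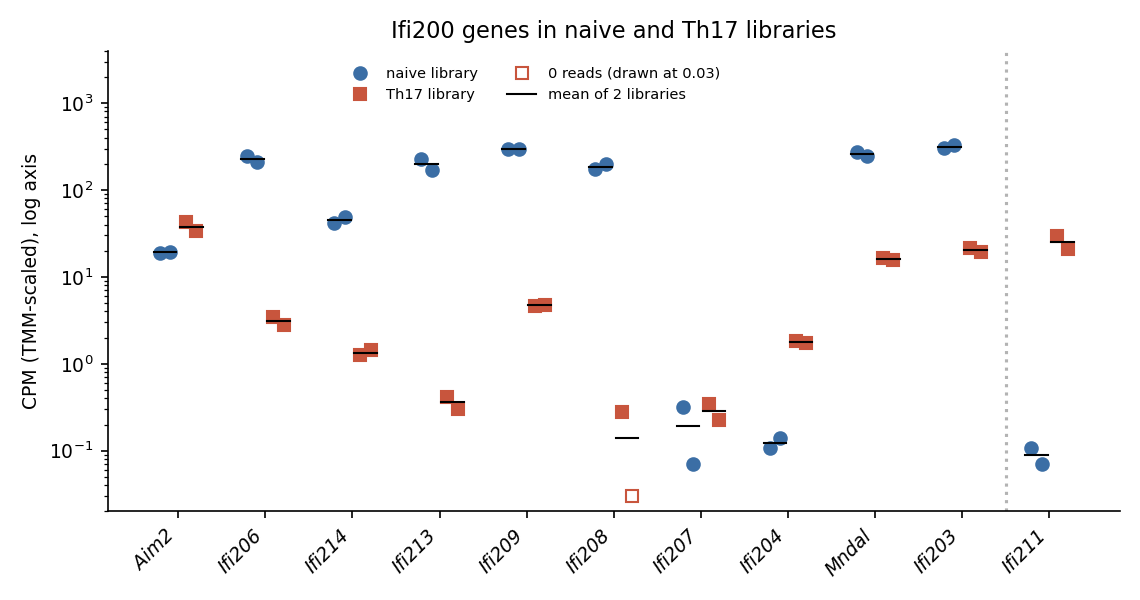
CPM on a log axis for the 10 Ifi200 members, in the order of their position, and for the neighbouring family gene Ifi211 to the right of the dotted line. Each symbol is 1 library and the line is the mean of 2; 7 members lie lower in both Th17 libraries than in both naive libraries, and Aim2, Ifi204 and Ifi211 lie higher.

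Aim2, the DNA sensor of the family, stood at 19 and 19.4 CPM in the naive and at 42.5 and 33.5 CPM in the Th17 libraries. The naive libraries were nearly equal, both Th17 libraries were above them, and the groups did not overlap. Its fitted log2 difference was 0.99 (SE 0.17). Because its neighbours were so much lower in Th17 cells, the share of Aim2 in the summed CPM of the 10 members went from 1.20% and 1.28% in the naive to 45.7% and 41.9% in the Th17 libraries.

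Ifi204 encodes p204, a nuclear and cytosolic protein also studied as a DNA sensor and a cofactor of differentiation. It had 2 and 2 reads in the naive libraries and 53 and 23 reads in the Th17 libraries, or 0.106 and 0.141 CPM against 1.84 and 1.74 CPM. It was thus at the edge of detection in naive cells and low in Th17 cells, with no overlap. The log2 difference of 3.81 (SE 0.70) rests on those 4 naive reads, which lie under the floor of 3 reads per library. Ifi207, a large nuclear member of the family, had 6 and 1 reads in naive and 10 and 3 reads in Th17 libraries. These ranges overlapped in reads and in CPM (0.0704 to 0.318 against 0.227 to 0.347), and no fold is given.

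Ifi203 and Mndal, a neighbouring pair at the far end of the cluster, kept the most RNA of the 7 lower members. Ifi203 had 306 and 326 CPM in the naive and 21.8 and 19.3 CPM in the Th17 libraries. Mndal, whose symbol stands for myeloid nuclear differentiation antigen like, had 272 and 249 CPM against 16.4 and 15.8 CPM. Both were high in naive and well above detection in Th17 cells, and their log2 differences were nearly equal, -3.94 (SE 0.17) for Ifi203 and -4.01 (SE 0.17) for Mndal. They stayed at a near-constant part of the family's output: Ifi203 made 19.4% and 21.5% of the summed CPM in naive and 23.5% and 24.2% in Th17 libraries, and Mndal 17.2% and 16.4% against 17.7% and 19.8%.

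Ifi206, Ifi209 and Ifi214, PYHIN genes with less known roles, formed the middle tier. Ifi206 went from 246 and 207 CPM to 3.43 and 2.80 CPM. Ifi209 had 293 and 296 CPM in the naive libraries, the closest pair among the members relative to their mean, and 4.65 and 4.77 CPM in the Th17 libraries. Ifi214 was the lowest of the 3 in naive cells, at 41.5 and 49.1 CPM, and had 1.25 and 1.44 CPM in Th17 cells. In each of these genes the Th17 libraries lay more than an order of magnitude under the naive ones. The log2 differences were -6.16 (SE 0.22) for Ifi206, -5.97 (SE 0.18) for Ifi209 and -5.09 (SE 0.22) for Ifi214.

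Ifi213 and Ifi208 had the largest differences of the 10 members. Ifi213 had 4282 and 2443 reads in the naive libraries and 12 and 4 reads in the Th17 libraries, or 227 and 172 CPM against 0.416 and 0.303 CPM. Ifi208 had 3260 and 2827 reads against 8 and 0 reads, or 173 and 199 CPM against 0.277 and 0 CPM. Both genes were thus among the abundant family members in naive cells and at the edge of detection in Th17 cells. Their log2 differences were -9.02 (SE 0.29) and -9.91 (SE 0.44). Without Th17 library 1 the remaining Th17 library holds no Ifi208 read and the fitted value of -14.5 depends on the prior count, so it is no bound. Among all tested genes, 10 fell by at least as much as Ifi213 and 44 by at least as much as Ifi206, members included.

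Levels per kilobase of exon, over all annotated exons of a gene, give an approximate order of the members. These lengths ran from 3054 bases in Ifi206 to 8107 in Ifi214. Which exons the cells used, and reads that match more than 1 gene, were not taken into account. In naive cells, on CPM per kb, the order ran from Ifi209 at 83.0 (SD 0.41, n = 2) through Ifi206 at 74.2 (SD 8.89), Mndal at 71.8 (SD 4.40), Ifi203 at 47.2 (SD 2.12), Ifi208 at 35.4 (SD 3.51) and Ifi213 at 29.2 (SD 5.71) to Ifi214 at 5.59 (SD 0.67) and Aim2 at 5.49 (SD 0.09). Ifi207 at 0.0568 and Ifi204 at 0.0347 came last. The neighbours Ifi206 and Mndal, Ifi208 and Ifi213, Ifi214 and Aim2, and Ifi207 and Ifi204 had overlapping ranges and are not separated by these libraries. In Th17 cells Aim2 led at 10.8 CPM per kb (SD 1.82, n = 2), ahead of Mndal at 4.44 (SD 0.11), Ifi203 at 3.06 (SD 0.26), Ifi209 at 1.33 (SD 0.02) and Ifi206 at 1.02 (SD 0.15). Ifi204 at 0.503, Ifi214 at 0.166, Ifi207 at 0.0839, Ifi213 at 0.0526 and Ifi208 at 0.0264 followed, and only the last pair overlapped. Aim2 thus went from the eighth to the first place, and Ifi208 from the fifth to the last.

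The members lie within 591.8 kb of chromosome 1, at chr1:173350879-173942672 in the mm10 build, and their position gives a further view of the same values. In order along the chromosome they are Aim2 (+), Ifi206 (-), Ifi214 (-), Ifi213 (-), Ifi209 (+), Ifi208 (+), Ifi207 (-), Ifi204 (-), Mndal (-) and Ifi203 (-). The 5 genes from Ifi206 to Ifi208 sit side by side and were all lower in both Th17 libraries, with log2 differences from -9.91 to -5.09. Next to them Ifi207 and Ifi204 were barely read in naive cells, and Mndal and Ifi203 beyond them were lower by about 4 on the log2 scale.

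Ifi211, a family gene that was not among the members, lies within the annotated span of Mndal on the same strand (chr1:173896345-173913046). It had 2 and 1 reads in the naive libraries and 845 and 274 reads in the Th17 libraries, or 0.106 and 0.0704 CPM against 29.3 and 20.8 CPM. This rise ran against the fall of Mndal around it, and in the quasi-likelihood test of edgeR, adjusted after Benjamini and Hochberg, it had a log2 difference of 8.01 (SE 0.40, adjusted p = 5.9e-07). The ratio of summed reads was 293, with an exact 95% counting interval from 100.1 to 1425. The last family gene in the table, Ifi205, had 2 and 0 reads against 7 and 0 reads and was not tested.

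Within 1 Mb of the cluster the table held 18 other genes, Ifi211 and Ifi205 included, of which 5 passed the filter: 2 were called higher, 1 lower and 2 were not called. Besides Ifi211, Tagln2, a gene for an actin-binding protein, was higher at the threshold (318 and 408 CPM against 542 and 472 CPM, log2 difference 0.48, SE 0.19, edgeR adjusted p = 0.049), and 6 of 9 alternative settings, among them leaving out naive library 1, naive library 2 or Th17 library 1, put it past 0.05 (adjusted p of 0.058 to 0.26 in those 6). Pigm, an enzyme of GPI anchor synthesis, was lower (100.1 and 70.1 CPM against 41.4 and 35.1 CPM, log2 difference -1.15, SE 0.20, adjusted p = 0.0012). Dusp23 (log2 difference -1.16, SE 0.48, adjusted p = 0.059) and Igsf9 (0.16, SE 0.73, adjusted p = 0.86) were not called. Without Th17 library 2, Dusp23 was called lower (adjusted p = 0.005). These 4 genes outside the family all lie on the Aim2 side of the cluster, at chr1:172376546-172632962, and no gene beyond Ifi203 was tested. None of the 4 differed by more than 1.16 on the log2 scale. The 5 members from Ifi206 to Ifi208, chosen with their levels known, differed by 5.09 to 9.91.

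**Figure D2:**
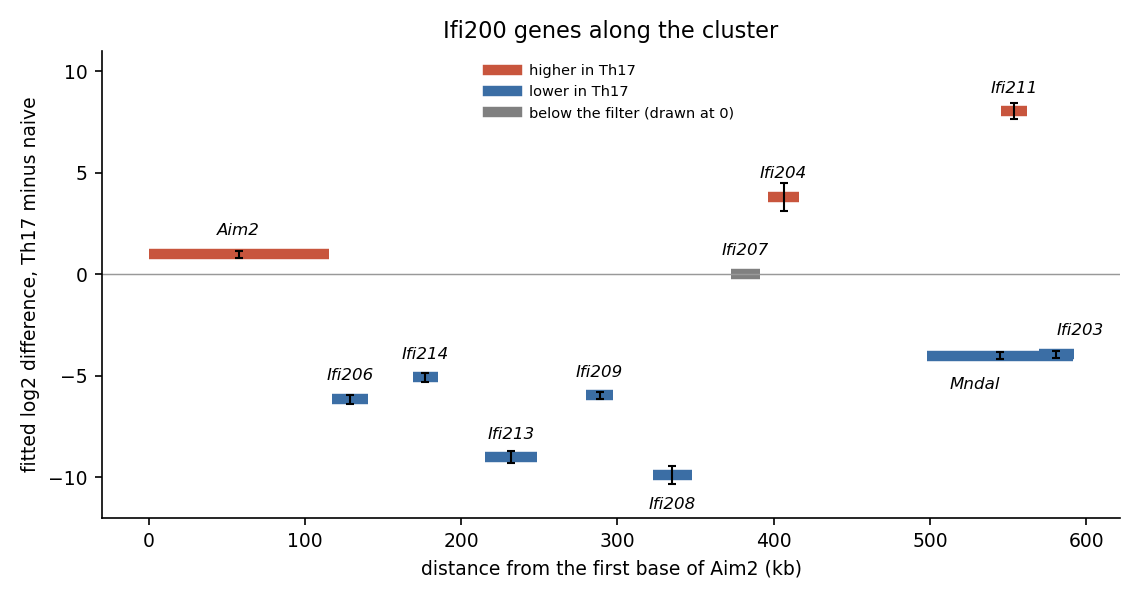
Fitted log2 difference, Th17 minus naive, of the Ifi200 members and Ifi211 against distance in kb from the first base of Aim2; bars span each annotated gene and whiskers are SE. The 5 genes from Ifi206 to Ifi208 lie at -5.09 or lower, and Ifi211 stands at 8.01 over the span of Mndal at -4.01.

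Several of these genes are near-identical copies, and the settings for reads that match more than 1 gene are not given in the sources used here, so the share of sequence that a read could not assign was measured in the annotated transcripts. Each gene's transcripts were cut into all windows of 50 bases, and windows found again in another family gene were counted. Aim2 shared none with the family. Ifi209 shared 33.4% of its windows, with Ifi214, which in turn shared 14.5% of its own longer set. Ifi208 shared 20.8%, most of it with Ifi213 (18.1%), and Ifi213 shared 15.6% and Ifi206 15.8%. With genes outside the family, Ifi206 shared 9.8% of its windows, against 2.62% for Ifi207 and less for the other members. For Ifi204 the share was 19.2%, of which 14.8% with Ifi211, for Mndal 17.7%, for Ifi203 12.2% and for Ifi207 5.39%. Ifi211 shared 72.8% of its windows, 44.7% with Ifi205, 30.1% with Ifi204 and 17.1% with Mndal. With windows of 100 bases the shares were smaller, at 56.9% for Ifi211, 16.9% for Ifi209, 10.7% for Ifi204 and at most 7.74% for the other members.

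The shared windows fell into separate groups along the chromosome. Ifi214 shared windows with Ifi209, and Ifi206, Ifi213 and Ifi208 shared windows among themselves, all of them lower in Th17 cells. Ifi207, Ifi204, Mndal, Ifi203, Ifi211 and Ifi205 formed a further group, in which Mndal and Ifi203 were lower and Ifi204 and Ifi211 higher in Th17 cells. Coding sequences of several of these genes were near copies. Ifi214 and Ifi209 were identical at 97.3% of 1179 aligned bases, Ifi213 and Ifi208 at 96.9% of 1758, and Ifi204 and Ifi211 at 96.6% of 1272. Ifi211 and Ifi205 followed at 94.7% of 1212. Mndal and Ifi203 were less alike, at 81.8% of 1448, and Mndal was closer to Ifi211, at 87% of 1251. Single values for Ifi204 and Ifi211, for Ifi213 and Ifi208 and for Ifi209 and Ifi214 are accordingly uncertain to the extent that reads were split between copies. The same holds for Ifi206, through family copies and genes outside the family. It also holds for Mndal, which shared 7.96% of its 50-base windows with Ifi211, and for Ifi203, which shared windows with Mndal. Beside the 53 and 23 Th17 reads of Ifi204, Ifi211 had 845 and 274. The part of shared reads in the Ifi204, Mndal and Ifi203 counts was not tested. The exons of Mndal and Ifi203 overlap by 37 bases on the same strand, 1.02% of the Mndal and 0.552% of the Ifi203 exon length.

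**Figure D3:**
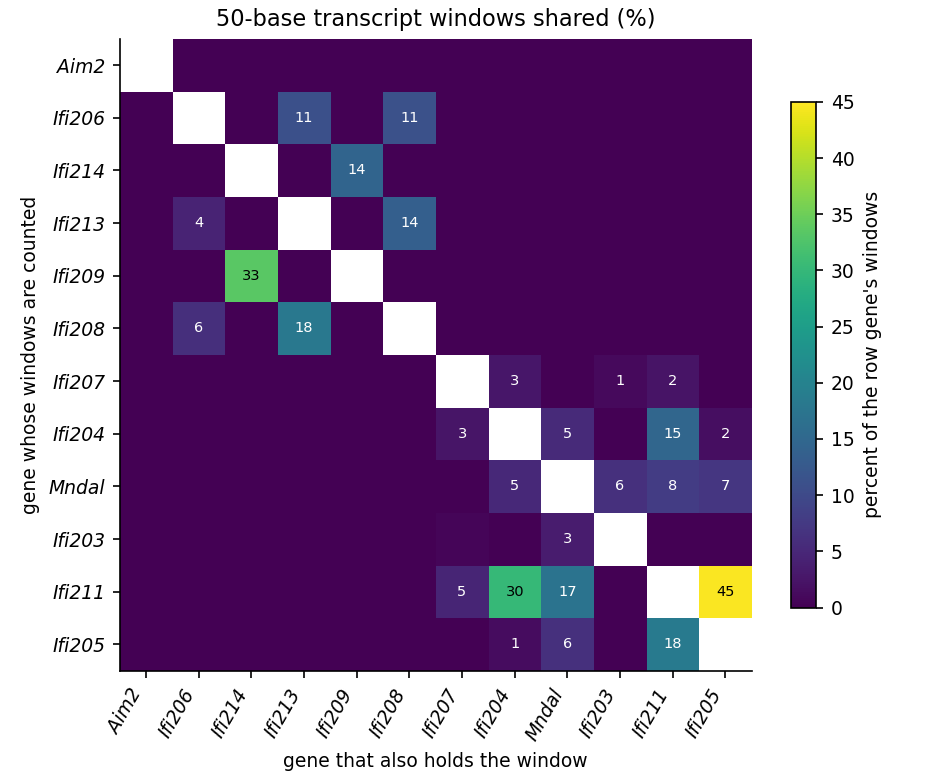
Percent of each gene's 50-base transcript windows (rows) that occur again in another family gene (columns); blank cells are the gene itself and shares of at least 1 are written in. Genes from Ifi206 to Ifi208 share windows only among themselves in this set, as do those from Ifi207 to Ifi205, and Aim2 shares none.

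The promoters of the members were set beside these levels, because many of the genes are near copies there too and because interferon targets are bound at a short element. Windows of 300 bases, 250 before to 50 after the annotated start, came from RefSeq on the GRCm38.p6 assembly for 9 of the 10 members, and Ifi204 had no entry. Searched on both strands for GAAANNGAA, the core of the interferon-stimulated response element (ISRE), 7 of those 9 members held a match: Ifi203, Ifi206, Ifi207, Ifi208, Ifi213, Ifi214 and Mndal. Over all 32851 windows 8.56% held 1, or 9.76% of 27025 genes. No member's window held TTCNNNGAA, the letters of a gamma-activated site, which 8.30% of windows held. The 2 motifs can overlap by their GAA. Aim2 and Ifi209 had no match to the ISRE core, which says only that these letters are not in those windows. The stretches of 30 bases around the match, in capitals, are shown on the gene's own strand, 5′ to 3′, so that the members can be compared base by base with their levels, and the last line gives the closest stretch of Ifi209, with the corresponding bases in capitals.
Ifi206, chr1:173491339-173491368 (-): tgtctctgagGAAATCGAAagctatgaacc
Ifi213, chr1:173599326-173599355 (-): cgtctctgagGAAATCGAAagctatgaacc
Ifi208, chr1:173673597-173673626 (+): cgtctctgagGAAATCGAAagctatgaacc
Ifi214, chr1:173536017-173536046 (-): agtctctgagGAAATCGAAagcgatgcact
Mndal, chr1:173880204-173880233 (-): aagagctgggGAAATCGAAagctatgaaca
Ifi203, chr1:173942508-173942537 (-): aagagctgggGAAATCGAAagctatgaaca
Ifi207, chr1:173741831-173741860 (-): cctagccaggGAAATCGAAaattaagaaca
Ifi211, chr1:173913064-173913093 (-): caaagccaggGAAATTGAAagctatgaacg
Ifi209, chr1:173630770-173630799 (+): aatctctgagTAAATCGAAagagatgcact

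The match began 35 to 79 bases before the annotated start in the 7 members: at 35 in Ifi203, 36 in Mndal, 40 in Ifi206, 41 in Ifi207, 58 in Ifi208, 73 in Ifi213 and 79 in Ifi214. In 6 of them the core continued to the same 12 bases, GAAATCGAAAGC, a string picked after the windows had been read. Of all 32851 windows only 6 held it on either strand, 1 each of Ifi203, Ifi206, Ifi208, Ifi213, Ifi214 and Mndal. All 6 genes are among the 7 members that were lower in Th17 cells. The string was taken from the window of Ifi208, the member with the largest difference, and several of these windows are near copies. Its overlap with the lower members is therefore no test. Mndal and Ifi203 have a second annotated start, whose windows held an ISRE core on the other strand and no match, respectively.

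The exceptions were compared base by base with another stretch. Counted from 1 at the 5′ end of the stretch, Ifi209 differs from Ifi214 by G2A, G11T and C22A, of which the second removes the ISRE core. The log2 differences were -5.97 for Ifi209 and -5.09 for Ifi214, values that may share reads, since 33.4% of the 50-base windows of Ifi209 occur in Ifi214. Any part of the ISRE core in these levels was not tested. Ifi211, the gene that was higher in Th17 cells, differs from Mndal by A1C, G3A, T7C, G8A, C16T and A30G, keeps an ISRE core and lacks the 12 bases. In Ifi207, which was barely read in either group, the core is that of Mndal. The bases before it differ by A1C, A2C, G3T, T7C and G8A, and those after it by G21A, C22T and T25A. Some whole windows were near copies: Ifi206 and Ifi208 were identical at 99.3% of 281 aligned bases, Ifi213 and Ifi208 at 98.9% of 285, Mndal and Ifi203 at 97.6% of 289 and Ifi214 and Ifi209 at 96.0% of 299. Those of Ifi207 and Ifi211 were less like the window of Mndal that holds its stretch, identical at 68.9% of 238 and 67.4% of 258 aligned bases. The matches describe sequence alone, and no binding was measured.

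**Figure D4:**
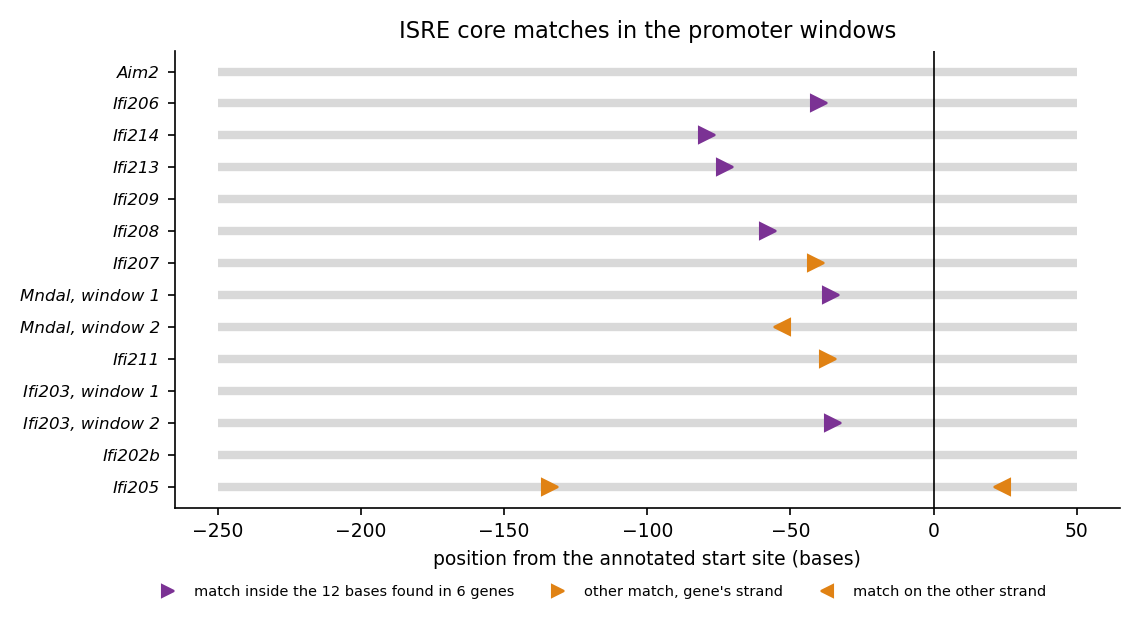
Position of each ISRE core match in the promoter windows (grey, 250 bases before to 50 after the annotated start) of 9 Ifi200 members and 3 other family genes; arrowheads point right on the gene's strand and left on the other. Purple marks lie 35 to 79 bases before the start in the 6 genes that hold the 12 bases.

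The partners of the members were followed in the same fit, with lists that had been written with earlier results of these data known, so the counts are read as descriptions beside those over all genes. The first list holds inflammasome genes, both partners of AIM2 and other sensors such as Nlrp3 and Nlrp1b. Of its 12 tested genes, 7 were higher and 5 lower in Th17 cells (58.3% and 41.7%, against 34.3% and 30.7% of all tested genes). Their median log2 difference was 0.93. Pycard, the ASC adaptor, fell from 111 and 123 CPM to 42.0 and 41.6 CPM (log2 difference -1.48, SE 0.15, edgeR adjusted p = 4.5e-05). Casp1 rose from 4.35 and 3.59 CPM to 33.4 and 22.4 CPM (2.81, SE 0.26, adjusted p = 2.3e-05), so that the adaptor and the protease downstream of AIM2 moved in opposite directions while Aim2 itself was higher. The sensor gene Nlrp1b had 41 and 21 reads in naive and none in Th17 libraries, at least 11-fold lower against 3 reads per library (adjusted p = 5.1e-04). Il18, a cytokine cut by caspase-1, had 1 and 1 reads against 40 and 32 reads, a ratio of 28.3 (95% counting interval 7.56 to 238, adjusted p = 8.8e-04). The sensor Nlrp3 had 1 and 1 reads against 65 and 18 reads, a ratio of 32.6 (8.76 to 274, adjusted p = 8.2e-04). None of these 3 was called without naive library 1 or without naive library 2 (adjusted p of 0.079 to 0.13), where 3 genes of the list were called higher instead of 7. Without naive library 1, 3 were called lower instead of 5.

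Of 25 tested genes of cytosolic DNA sensing beyond AIM2, 11 were lower, 2 higher and 12 not called, with a median of -0.39. The share called was 52%, against 65.1% of all tested genes, and the share lower was 44%, against 30.7%. The kinase gene Ikbke fell from 637 and 591 CPM to 75.7 and 70.8 CPM (log2 difference -3.07, SE 0.17, edgeR adjusted p = 1.2e-06). Irf3, the transcription factor at the end of the STING pathway, fell from 209.7 CPM in both naive libraries to 57.1 and 50.4 CPM (-1.96, SE 0.16, adjusted p = 9.0e-06), and Irf7, its interferon-inducible relative, fell by 1.64 on the log2 scale (SE 0.19, adjusted p = 9.1e-05). Tmem173, which encodes STING, fell from 213 and 234 CPM to 118 and 96.6 CPM (-1.06, SE 0.17, adjusted p = 5.3e-04). Cgas, the sensor that feeds STING, was at 9.5 and 9.93 CPM against 8.05 and 7.43 CPM and was not called (-0.33, SE 0.26, adjusted p = 0.29). The count of 2 higher was 1 in 5 alternatives, among them leaving out naive library 1, naive library 2 or Th17 library 1.

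In the pathway that induces Ifi200 genes, 8 of 16 tested genes of interferon receptors, their kinases and interferon regulatory factors were lower, 3 higher and 5 not called, with a median of -0.73. The 68.8% called either way lies near the 65.1% of all tested genes, and the shares by direction were 50% lower and 18.8% higher. Irf9, the DNA-binding subunit of the complex that acts on these elements, fell from 238 and 207 CPM to 77.5 and 66.2 CPM (log2 difference -1.63, SE 0.17, edgeR adjusted p = 4.0e-05). Stat2, a further subunit, had 137 and 94.9 CPM against 121 and 115 CPM and overlapped between the groups (0.02, SE 0.19, adjusted p = 0.92). The receptor gene Ifnar1 was at 194 and 144 CPM against 137 and 101 CPM (-0.50, SE 0.21, adjusted p = 0.065), and was called lower in 3 of 9 alternatives, among them without Th17 library 1 (adjusted p = 0.0047). Irf1 fell by 3.11 on the log2 scale (SE 0.17, adjusted p = 1.1e-06) and Jak1 fell by 2.03 (SE 0.18, adjusted p = 1.9e-05), whereas Irf8 rose by 2.37 (SE 0.17, adjusted p = 5.0e-06).

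Of 53 other interferon-stimulated genes tested, 31 were lower, 9 higher and 13 not called, with a median of -0.95. That is 58.5% lower and 17% higher, against 30.7% and 34.3% of all tested genes. Ifit1bl1, of the IFIT family of RNA-binding proteins, went from 167 and 126 CPM to 0.139 and 0.379 CPM (log2 difference -9.35, SE 0.36, edgeR adjusted p = 3.3e-07), in the range of Ifi213 and Ifi208. Oas2, an enzyme that activates RNase L, went from 70.2 and 55.4 CPM to 1.67 and 2.27 CPM (-5.03, SE 0.23, adjusted p = 4.4e-07), in the range of Ifi214. Ifit1bl2 fell by 3.55 (SE 0.53, adjusted p = 4.0e-04) and was not called without naive library 1 (adjusted p = 0.062) or naive library 2 (0.05). Without naive library 2, 5 genes of the list were called higher instead of 9. The members' median of -5.09 stood below the -0.95 of this list, a description only, since the members were chosen on it.

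Some p200 proteins bind the retinoblastoma protein, p53 or their partners, and of 19 such genes tested 8 were higher, 5 lower and 6 not called, with a median of 0.31. These shares, 42.1% higher and 26.3% lower, lie near those of all tested genes (34.3% and 30.7%) and are no result about the list. Cdkn1a, the cell cycle inhibitor p21, went from 3 and 4 reads to 24071 and 10107 reads (log2 difference 11.83, SE 0.31, edgeR adjusted p = 1.1e-07). E2f1 rose by 2.42 (SE 0.21, adjusted p = 1.7e-05) and Id1, an inhibitor of helix-loop-helix factors, by 4.35 (SE 0.67, adjusted p = 4.7e-04). Id1 was not called without naive library 1 or naive library 2 (adjusted p of 0.069 and 0.06), and leaving out either of these or Th17 library 2 left 3 genes lower instead of 5.

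**Figure D5:**
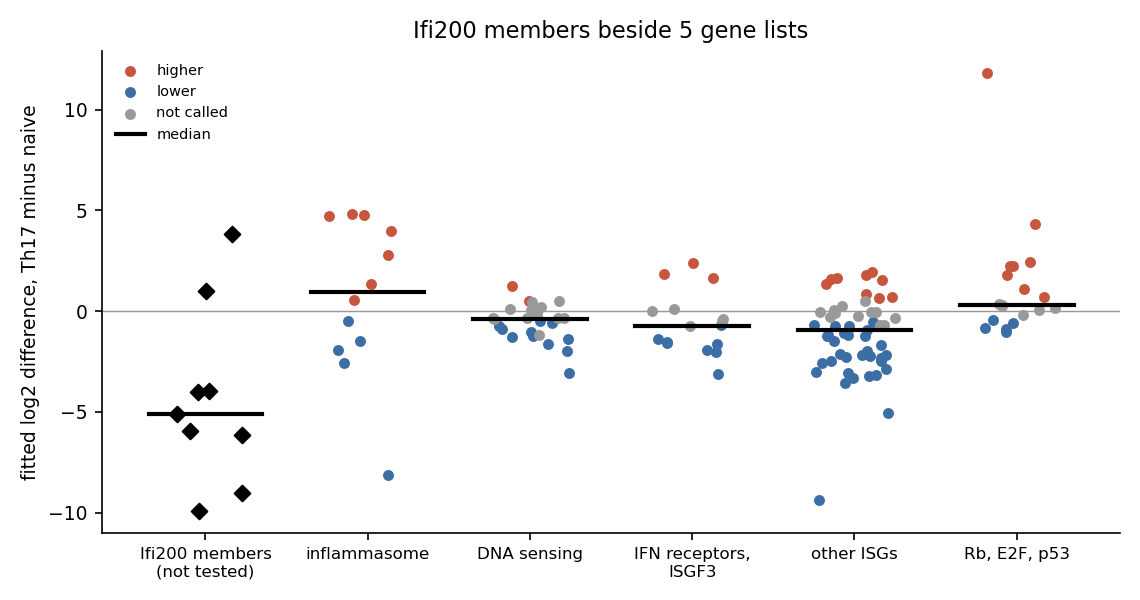
Fitted log2 difference, Th17 minus naive, for the 9 Ifi200 members past the filter (black diamonds, not tested) and the tested genes of 5 lists (circles, coloured by the edgeR call); lines are medians. The members' median is -5.09, and those of the lists run from -0.95 (other interferon-stimulated genes) to 0.93 (inflammasome).

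Genes elsewhere in the genome whose profile over the 4 libraries was closest to the summed counts of the 10 members were found by Euclidean distance between log2 CPM, each centred on its own mean, over 4 libraries. Among the closest were Amigo2 (distance 0.0860), Als2cl (0.0958), Cacna2d4 (0.164) and St8sia6 (0.167). Amigo2, an adhesion molecule gene, had 81.1 and 76.2 CPM in naive and 4.34 and 4.02 CPM in Th17 libraries. Als2cl had 1239 and 1130 CPM against 71.4 and 65.2 CPM, beside 1578 and 1518 and 92.9 and 79.9 CPM for the sum of the 10 members. With 2 libraries per group, such a distance mostly ranks genes by the size of their difference between the groups.

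A-to-I editing, in which ADAR enzymes turn adenosines of double-stranded RNA into inosine, was read from tables of called sites. The table of naive and Th17 cells listed 869 sites, 36 of them on chromosome 1, and the table of wild-type and DDX5-deficient Th17 cells listed 355, 21 of them on chromosome 1. Counted over each of them, 0 sites lay inside a member or within 1 Mb of the cluster. Only called sites are listed, so that editing below the caller's threshold in these genes cannot be told from none.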

How the data were processed

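Counts per gene were deposited for 2 naive and 2 Th17 libraries, as the original columns per the file headers. Reads were aligned to the mm10 build, and the tools listed are featureCounts, STAR 2.6.1a and DESeq2 1.18.1, per the submitters' processing notes. The use of strand and of multiply mapped reads is not given in the sources used here. The table's 8 other columns of values per library were not used. Of 16308 gene identifiers, 16295 were found in GENCODE M21, which also gave back 25 symbols stored as dates. The editing tables gave an edited fraction per site and library, made by the authors with SAILOR per the labels; only the site positions were used here.

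Counts were fitted with edgeR 4.0.16 in R 4.3.3 (filterByExpr, TMM, robust quasi-likelihood fit on group alone, Benjamini-Hochberg adjustment over all tested genes, threshold 0.05, prior count 0.125). The procedure was also run on simulated counts in which few genes changed. Most tested genes were called in these data, so that run does not show how well the calls here hold. The p-values measure the spread between these 2 libraries per group. A group at 0 reads was set to a floor of 3 reads per library, a mean of 0.185 CPM in naive and 0.166 CPM in Th17 cells. Floors and intervals hold counting error alone, since PCR copies are not separate molecules. The replicate 2 libraries of both groups carry the same number in their headers and descriptions, and the replicate 1 libraries carry different ones; what this number stands for is not stated, so whether replicate 2 shares an animal is unknown, and libraries were compared without pairing. Alternatives were DESeq2 1.42.0, its size factors in edgeR, no filter, a minimum mean normalized count of 10, a replicate block, and leaving out each library.

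The members and the gene lists were chosen with earlier results of these data known. Named were all members, up to 3 called genes per pathway list with the largest log2 difference, pathway genes fixed by name (Pycard, Casp1, Cgas, Tmem173, Irf3, Stat2, Irf9 and Ifnar1), all tested neighbours within 1 Mb and the 5 closest profiles; some genes that this rule names are not reported here. Some of the marker genes of other cell types that changed or were at 0 reads were named. A planned comparison of protein sequences was replaced by transcript and coding sequences of GENCODE M21, aligned with Biopython 1.88. Promoter windows came from RefSeq on GRCm38.p6.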

Additional observations from a re-analysis of the deposited data

How the results depend on the processing

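Across 9 alternatives the 9 members past the filter kept their direction, 7 were called lower each time, and their median log2 difference ran from -5.23 to -5.00. Leaving out 1 library at a time, the members called higher ranged from 0 to 2 (0 without either naive library), all genes higher from 2380 to 4847, against 4116, and the genes of the 5 pathway lists higher from 18 to 30, against 29. Neighbours called higher ranged from 1 to 3, against 2, and neighbours called lower from 1 to 2, against 1. The cause of these shifts was not tested. The deviations of same-numbered naive and Th17 libraries correlated at -0.08 across genes, which in a layout of 2 against 2 does not settle whether the libraries are paired. With a replicate block, 4094 genes were higher and 3644 lower, 1 neighbour instead of 2 was called higher, and the 7 and 2 member calls were unchanged. Stat2, not called, changed sign at -0.007 without the filter and ranged from -0.29 to 0.27 over the leave-one-out fits, and Igsf9, not called, from -0.32 to 0.81. With 4 and 8 reads, Ifi204 in naive and Ifi208 in Th17 cells are limited by depth.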
